A study of Rattus norvegicus with 24 samples.

Results

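Imprinted growth genes were examined in the fetal rat brain: Igf2, H19, Cdkn1c, Dlk1, Peg3, Grb10, Plagl1, Mest, Peg10 and Ndn. The 10 genes were chosen by symbol as imprinted genes with known roles in fetal growth, a rule that uses no measured value, although earlier results of these data were known when they were chosen. Of these, 9 were matched to the 17420 gene entries of the deposited table and Peg10 was not analysed here. RNA sequencing had been performed on the hippocampus and neocortex of 24 Sprague-Dawley rat fetuses on embryonic day 18, in 4 groups of 6 pups named by the treatment of the mother. Each group held 3 pups from each of 2 litters, and pups are named here by the numbers in their labels. The first number was read as the litter and the second as the pup (Low Protein 2-2 as pup 2 of litter 2). The labels do not state this, so all values by litter rest on that reading.

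Saline dams were injected with saline on gestational day 17. MAM dams received the DNA-alkylating antimitotic agent methylazoxymethanol acetate at 22 mg/kg, and Poly I:C dams received the synthetic double-stranded RNA polyinosine:cytosine, which mimics a viral infection, at 7.5 mg/kg, both by the intraperitoneal route on gestational day 17. Tissue was taken on gestational day 18, 18 hours after injection. Low Protein dams ate a diet of 6.1% protein from gestational day 11 to 18 in place of the control diet of 20.3% protein, so the Low Protein exposure lasted days where the injections acted for hours. For the dams injected with MAM or Poly I:C the sources name no diet, nor do they say whether Low Protein dams were injected, and the sex of the pups was not given. The dam was the treated unit and each treatment had its own 2 litters, so differences between litters add to those between treatments and can be set against them only in the weak comparison of litter means. P-values over pups measure the spread between pups and treat litter-mates as separate samples.

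Imprinted genes are transcribed mainly from the copy inherited from a single parent, through methylation marks set in the germ line. Many genes expressed from the father's copy promote fetal growth and many expressed from the mother's copy restrain it, and maternal undernutrition is a setting in which this balance is often studied. In the fetal brain several of them are known to be strong outside neurons, in the meninges and vessels, and others are strong in neurons of the hypothalamus and brain stem.

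Levels are given as deposited TPM, a value normalized by library and by gene length, for which the length behaved as the genomic span with introns. Each pup's values sum to the same total, so a value is a share of that total. As that length includes introns, the order of genes in TPM is not an order of transcript abundance. Over all 24 pups Ndn had the highest TPM of the members, with a mean of 217 TPM and the 42nd highest mean of all entries. H19 (23.6), Cdkn1c (20.3) and Igf2 (14.3 TPM) followed with overlapping ranges. Peg3 had a mean of 8.77, Dlk1 of 4.45 and Mest of 4.03 TPM, and the ranges of Dlk1 and Mest overlapped. Plagl1 (1.14) was lower and Grb10 (0.434 TPM) was the lowest. Because only 8 of the 9 members had a mean above 1 TPM in every group, Grb10 was taken from a wider fit of 9879 genes and the other members from a fit of 5086 genes. Estimated depth was 24.3 to 68.5 megareads per pup, which puts the members at between 679 and 40474 estimated reads in a pup. Median estimated reads gave another order than TPM, with 16606 for Ndn, 11423 for Igf2, 11062 for Peg3, 2748 for H19 and 2616 for Cdkn1c. Grb10 (2245), Plagl1 (2226), Mest (2193) and Dlk1 (1531) followed.

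Across the whole series, the labelled tissue showed a marker of its own, with the cortical factor Tbr1 between 10.4 and 16.9 TPM. Saline 2-1 stood apart from the other saline pups, with a sum of 100 TPM over the ventral forebrain (subpallium) list where the saline median was 61.4, and a sum of 214 TPM over the cortical and hippocampal neuron list where the saline median was 346. At an unadjusted p under 0.05, the call rule used here, 8.24% of all 5086 genes passed in Low Protein against saline, 11.2% did so for MAM and 9.95% for Poly I:C. After Benjamini-Hochberg adjustment 0% passed in Low Protein, 0.0197% with MAM and 0% with Poly I:C. Of the genes past the unadjusted threshold 44.4% were higher in Low Protein and 27.3% were higher in MAM. These shares became 58.9% and 80% when libraries were scaled by the median of ratios. With upper-quartile scaling they were 42.9% in Low Protein and 56.5% in MAM, so directions of small changes depend on the scaling. The numbers behind these shares also moved when a pup or litter was left out, from 271 to 530 genes in Low Protein, 163 to 862 with MAM and 228 to 964 with Poly I:C.

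The promoter windows shown are those of Igf2, Dlk1, Peg3 and Ndn, from the sets of members that varied together from pup to pup, described below. Grb10, which varied with Igf2, is not shown. RefSeq windows of 300 bases (250 before and 50 after the transcript start, assembly GRCr8) were matched for 8 of the 10 genes, with 2 windows for Igf2. No window was used for H19 and Cdkn1c. Capitals mark GC boxes (GGGCGG on either strand) and, in Peg3, the letters GGGGCCCC, the core motif bound by the protein that Plagl1 encodes.
Igf2 first window, chr1:207253931-207254230, - strand: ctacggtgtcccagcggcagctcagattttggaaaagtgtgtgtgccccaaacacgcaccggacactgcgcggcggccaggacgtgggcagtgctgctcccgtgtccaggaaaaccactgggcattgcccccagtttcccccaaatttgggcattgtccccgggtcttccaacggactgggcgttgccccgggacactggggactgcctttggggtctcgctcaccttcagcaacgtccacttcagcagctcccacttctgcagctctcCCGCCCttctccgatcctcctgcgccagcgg
Igf2 second window, chr1:207250426-207250725, - strand: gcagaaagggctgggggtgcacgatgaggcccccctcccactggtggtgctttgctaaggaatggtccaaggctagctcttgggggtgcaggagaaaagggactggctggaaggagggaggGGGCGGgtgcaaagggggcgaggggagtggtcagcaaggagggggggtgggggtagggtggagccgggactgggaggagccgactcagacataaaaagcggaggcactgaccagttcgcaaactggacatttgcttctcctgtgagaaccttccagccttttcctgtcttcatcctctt
Dlk1, chr6:134192347-134192646, + strand: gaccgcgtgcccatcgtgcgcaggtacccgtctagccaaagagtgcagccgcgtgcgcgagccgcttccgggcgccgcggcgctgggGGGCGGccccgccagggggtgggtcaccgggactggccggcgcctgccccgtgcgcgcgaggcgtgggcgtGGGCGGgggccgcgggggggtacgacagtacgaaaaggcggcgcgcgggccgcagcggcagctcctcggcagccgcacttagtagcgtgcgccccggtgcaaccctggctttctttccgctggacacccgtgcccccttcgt
Peg3, chr1:76130744-76131043, + strand: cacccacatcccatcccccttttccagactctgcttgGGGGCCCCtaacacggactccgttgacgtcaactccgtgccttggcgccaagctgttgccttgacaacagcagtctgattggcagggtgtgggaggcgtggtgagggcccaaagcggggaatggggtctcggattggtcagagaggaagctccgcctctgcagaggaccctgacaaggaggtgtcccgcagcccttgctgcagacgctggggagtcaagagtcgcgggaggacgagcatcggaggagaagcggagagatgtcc
Ndn, chr1:125260809-125261108, + strand: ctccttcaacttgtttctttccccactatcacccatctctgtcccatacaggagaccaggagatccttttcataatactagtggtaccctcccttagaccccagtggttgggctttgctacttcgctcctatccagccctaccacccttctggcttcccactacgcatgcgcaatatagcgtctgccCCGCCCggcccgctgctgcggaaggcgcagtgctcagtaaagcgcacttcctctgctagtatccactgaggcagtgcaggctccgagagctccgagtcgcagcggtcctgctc
The GC box letters were present in 33.1% of all 33469 RefSeq windows and in the windows of 7 of these 8 genes, Peg3 being the exception. GGGGCCCC was in 0.858% of all windows and, among the members, in Peg3 alone, at position -213 from the start. It reads the same on both strands. A YY1 core (GCCATNTT, in 6.96% of all windows) and a TATA box (TATAAA, in 14.2%) were found in no member window, which says only that these letters are not in these bases. Dlk1 had 45 CpG sites in its window, Grb10 44, Plagl1 29, Peg10 22, Mest 18, Peg3 16 and Ndn 14, against a median of 7 over all windows. The first Igf2 window had 19 and the second 7. A match of letters is a description and not a binding site.

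No member passed the test in Low Protein pups. At the unadjusted threshold 0 of 9 members passed against saline, beside 8.24% of all genes (7.79% in the wider fit that holds Grb10), and 3 members had a log2 fold change above 0 and 6 below. The median log2 fold change of the members was -0.08, against -0.01 over all genes tested. Several members, Igf2, H19, Cdkn1c and Grb10 among them, had a wider range in Low Protein than in saline pups, while Peg3 and Plagl1 did not.

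Igf2 encodes insulin-like growth factor 2, the main fetal growth factor of the family, and is expressed from the father's copy in most fetal tissues. The values here do not separate the parental copies of any gene. In saline pups Igf2 lay at 10.7, 12.1 and 18.1 TPM (lowest, median, highest). In Low Protein pups the same values were 6.45, 12.3 and 39.7 TPM. Low Protein 2-2 and 1-1 (26.8 TPM) lay above every saline pup, 2 Low Protein pups lay below every saline pup, and the other 2 were inside the saline range. Against saline the Low Protein log2 fold change was 0.20 (standard error 0.32, 95% interval -0.46 to 0.85, limma adjusted p = 0.911, exact two-sided permutation p = 0.660). Without Low Protein 2-2 it was -0.09, so its sign rested on that pup. MAM pups ranged from 6.90 to 20.5 TPM and Poly I:C pups from 10.1 to 16.3 TPM, and both groups overlapped saline.

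H19 is a maternally expressed long non-coding RNA that lies next to Igf2 and shares its control region. H19 was at 12.1, 16.7 and 35.3 TPM in saline pups and at 7.01, 18.9 and 64.2 TPM in Low Protein pups. As for Igf2, Low Protein 2-2 and 1-1 (45.7 TPM) were above all saline pups and Low Protein 1-3 was below them. On the log2 scale the group means differed by 0.30 (standard error 0.42, 95% interval -0.55 to 1.16, limma adjusted p = 0.894, exact permutation p = 0.574). Without Low Protein 2-2 it was 0.00096, and without Low Protein 1-3 it was 0.64 (adjusted p = 0.648). In Poly I:C pups H19 was at 16.4, 22.2 and 37.1 TPM, with a log2 fold change of 0.32 that also missed the threshold (limma adjusted p = 0.837; 0.09 to 0.56 when a pup or litter was left out), and in MAM pups it ranged from 8.90 to 39.4 TPM.

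Cdkn1c encodes the cell cycle inhibitor p57, expressed from the mother's copy, which restrains the division of progenitors. Cdkn1c was at 15.1, 18.5 and 21.8 TPM in saline pups and at 11.6, 20.2 and 48.2 TPM in Low Protein pups. The same pups were extreme: Low Protein 2-2 and 1-1 (31.1 TPM) were above and 1-3 was below all saline pups. Cdkn1c had a Low Protein log2 fold change of 0.30 (standard error 0.22, 95% interval -0.16 to 0.76, limma adjusted p = 0.736, exact permutation p = 0.372). Without Low Protein 1-3 it was 0.49 and passed the unadjusted threshold (limma adjusted p = 0.510), and without Low Protein 2-2 it was 0.07. In MAM and Poly I:C pups Cdkn1c stayed between 14.5 and 24.1 TPM, with log2 fold changes of 0.07 and -5.1e-05.

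Grb10 encodes an adaptor that binds the insulin and IGF1 receptors and dampens their signal. Its Low Protein values ran from 0.247 in pup 1-3 to 0.787 TPM in pup 2-2, around the saline range of 0.324 to 0.592 TPM. The extreme pups were thus again 1-3 and 2-2, and the groups overlapped. Its log2 fold change was -0.03 (standard error 0.21, adjusted p = 0.986 in the wider limma fit).

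**Figure D1:**
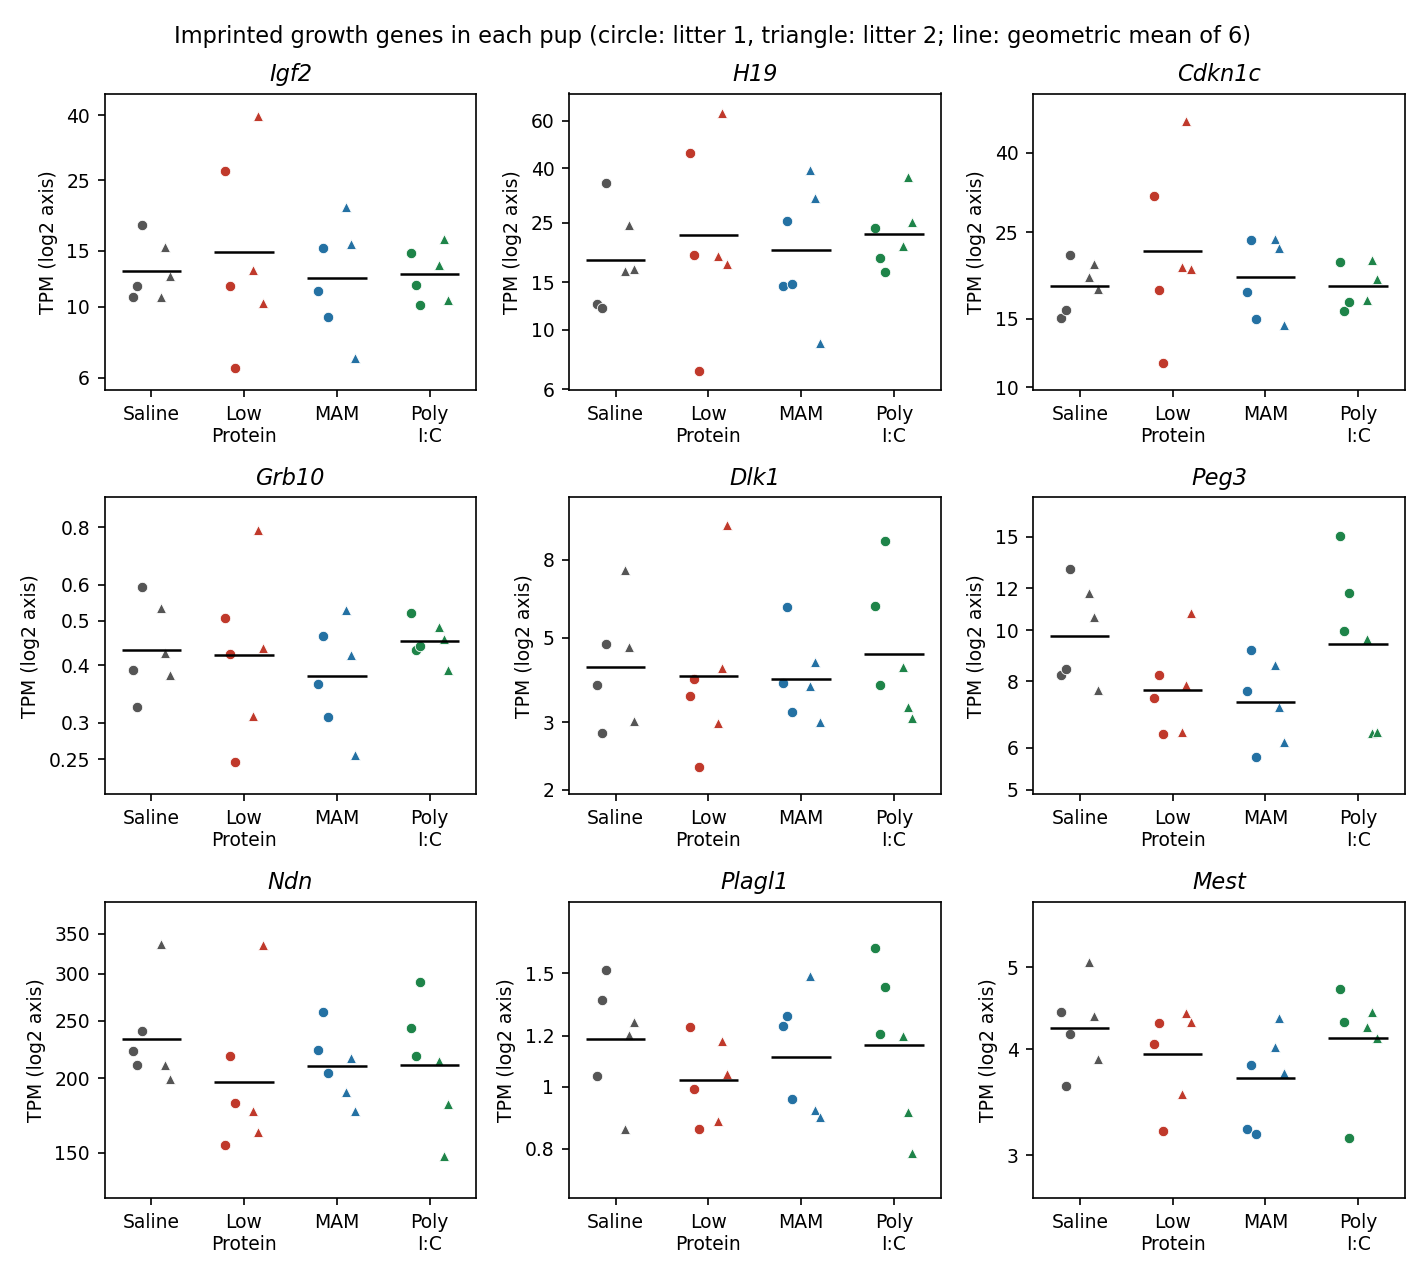
Deposited TPM of the 9 members (log2 axis, a scale of its own in each panel) in each of the 24 pups, by maternal treatment; circles are litter 1, triangles litter 2, and the line is the geometric mean of 6 pups. In Low Protein, Igf2 ran from 6.45 to 39.7 TPM against 10.7 to 18.1 TPM in saline, and in no panel did a treated group lie wholly outside saline.

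Peg3, Dlk1 and Ndn gave another order of pups. Peg3 encodes a zinc-finger protein, expressed from the father's copy, with roles in growth and maternal behaviour, and its promoter is the window above with GGGGCCCC. Peg3 was at 7.70, 9.51 and 13.1 TPM in saline pups, 6.36, 7.66 and 10.8 TPM in Low Protein pups, 5.77, 7.42 and 9.16 TPM in MAM pups, and 6.39, 9.78 and 15.1 TPM in Poly I:C pups. In Low Protein, 3 pups lay below the lowest saline pup and in MAM 4 did, with the rest inside the saline range. Against saline the log2 fold change was -0.34 in Low Protein (0.791-fold, standard error 0.19, 95% interval -0.72 to 0.05), which missed the threshold (limma p = 0.0814, adjusted p = 0.626, exact permutation p = 0.0736). This was the lowest p of any member in that comparison. Peg3 passed the unadjusted threshold in 4 of 32 fits that left out a pup or litter, those without Low Protein 2-3 (-0.43), without Saline 2-3 (-0.41) and without either Poly I:C litter.

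In MAM, Peg3 was the single member of 9 past the unadjusted threshold, and lower, beside 11.2% of all genes (10.6% in the wider fit), a share near the background. The log2 fold change was -0.42 (0.750-fold, standard error 0.19, 95% interval -0.80 to -0.03, limma p = 0.0348, adjusted p = 0.418, exact permutation p = 0.0411), and all 6 MAM pups lay below the saline median. The call was lost when libraries were scaled by the median of ratios (-0.35), on litter means and in 10 of 32 fits that left out a pup or litter, namely the 4 that left out a MAM or saline litter and those without Saline 1-3 (-0.33), Saline 2-1 (-0.36), Saline 2-2 (-0.39), MAM 1-3 (-0.35), MAM 2-2 (-0.41) or MAM 2-3 (-0.37). Marker lists for the subpallium and for the thalamus and hypothalamus were set beside Peg3. The subpallium list holds interneuron genes, and the paper describes interneurons as arising there and then moving into hippocampus and cortex. That list therefore does not mark only tissue from outside the dissected regions. The paper reported lower expression of several of these genes, also by quantitative PCR, and proposes that this may impair interneuron development. Of 6 subpallium genes tested, 3 passed below saline in MAM (median log2 fold change -0.30) and 4 in Low Protein (median -0.42). In Poly I:C 0 passed (median -0.16). The shares of all genes were 11.2%, 8.24% and 9.95%. The median over 7 thalamic and hypothalamic genes of the wider fit was -0.49 in MAM and -0.19 in Low Protein, with 0 of 7 past the threshold in each. In Poly I:C it was 0.34, with 1 of 7 higher, beside 9.92% of all genes of that fit. Their part in the Peg3 result was not tested. Low Protein and MAM did not differ detectably in Peg3 (log2 difference 0.08, 95% interval -0.31 to 0.46). In Poly I:C the log2 fold change was -0.05, and the litters were apart: litter 1 had a mean of 12.3 TPM ± 2.60 (SD, n = 3) and litter 2 of 7.47 ± 1.85. Without Poly I:C litter 1 the log2 fold change was -0.41, which passed the unadjusted threshold (limma adjusted p = 0.230), and without litter 2 it was 0.31.

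Dlk1 encodes a transmembrane protein of the Delta-like family, paternally expressed, that holds back the differentiation of precursor cells. Dlk1 was at 2.81, 4.25 and 7.51 TPM in saline pups and at 2.29, 3.71 and 9.88 TPM in Low Protein pups. Low Protein 2-3 was above and 1-3 below every saline pup, and the groups overlapped. The log2 fold change was -0.08 (standard error 0.30, limma adjusted p = 0.970), with 0.25 as the highest and -0.41 as the lowest value when a pup or litter was left out.

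Ndn encodes necdin, a paternally expressed growth suppressor of postmitotic neurons. Ndn was at 199, 217 and 336 TPM in saline pups and at 155, 179 and 335 TPM in Low Protein pups. The highest values were those of Saline 2-1 and Low Protein 2-3, and 4 of 6 Low Protein pups were below the lowest saline pup. Ndn had a log2 fold change of -0.24 (standard error 0.17, 95% interval -0.59 to 0.11, limma adjusted p = 0.712, exact permutation p = 0.279). Without Low Protein 2-3 it was -0.39, past the unadjusted threshold (limma adjusted p = 0.526), and without Saline 2-1 it was -0.13. Over the same saline pups without 2-1 the highest Ndn value was 241 TPM.

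Plagl1 encodes a zinc-finger transcription factor, paternally expressed, that is known to bind other imprinted genes. It ranged from 0.858 to 1.52 TPM in saline and from 0.857 to 1.24 TPM in Low Protein pups. The groups overlapped, with 1 of 6 Low Protein pups above the saline median and 1 just below the lowest saline pup. The log2 fold change was -0.22 (standard error 0.17, limma adjusted p = 0.747, exact permutation p = 0.169). As for Peg3, its Poly I:C litters were apart, at 1.43 TPM ± 0.220 (SD, n = 3) and 0.967 ± 0.210.

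Mest encodes a paternally expressed protein of the alpha/beta hydrolase family. Its Low Protein pups ranged from 3.20 to 4.42 TPM (1.38 times, the smallest ratio of highest to lowest among the members in that group), beside 3.62 to 5.07 TPM in saline, and the ranges overlapped. The log2 fold change was -0.10 in Low Protein (standard error 0.10, 95% interval -0.31 to 0.11, limma adjusted p = 0.824). In MAM, where Mest ranged from 3.18 to 4.36 TPM, it was -0.19 (limma adjusted p = 0.457, exact permutation p = 0.0887), and Mest passed the unadjusted threshold in 5 of the 32 fits that left out a pup or litter.

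**Figure D2:**
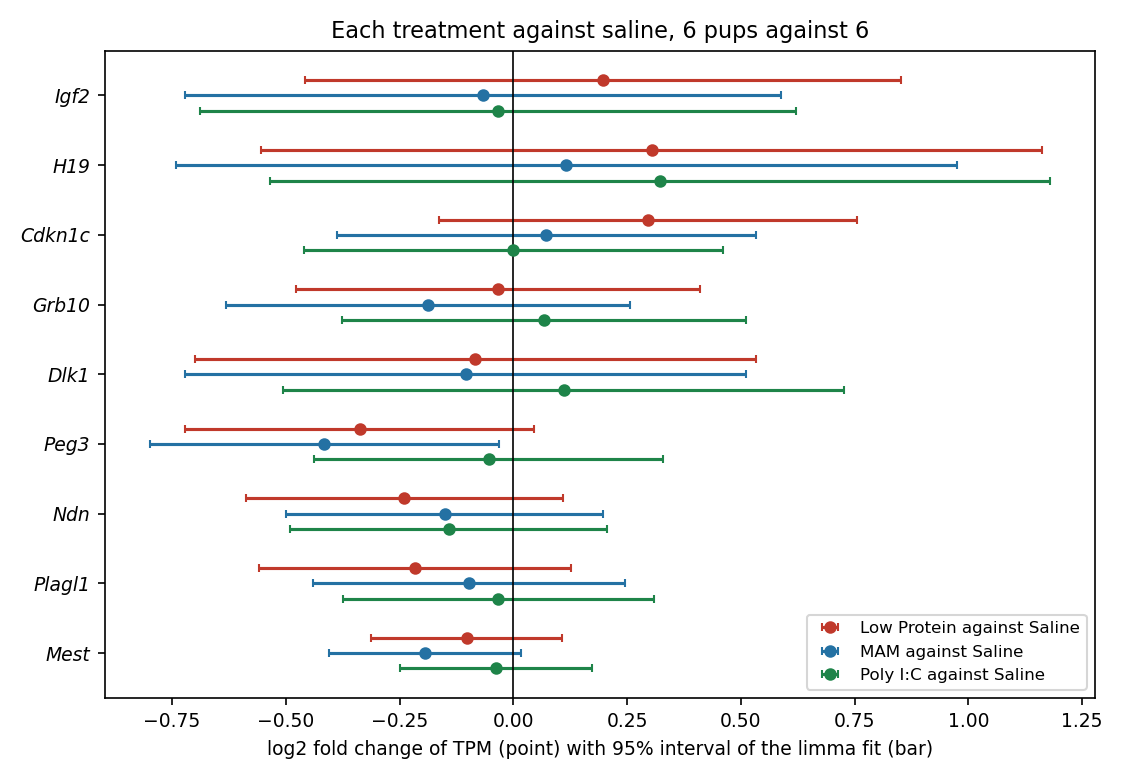
Log2 fold change of TPM for each member, each treatment against saline (Low Protein red, MAM blue, Poly I:C green) (points), with the 95% interval of the limma fit (bars; Grb10 from the wider fit). Of the 27 intervals, that of Peg3 in MAM (-0.80 to -0.03) is the one that does not include 0.

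In Poly I:C 0 of 9 members passed the unadjusted threshold, beside 9.95% of all genes (9.92% in the wider fit), and their median log2 fold change was -0.03. Between treatments, 0 of 9 members passed in Low Protein against MAM, where 11% of genes did, and 0 of 9 in Low Protein against Poly I:C, where 5.31% did. The groups of a member never lay wholly apart in any comparison with saline, while 0.747% of all genes did so in Low Protein, 0.786% with MAM and 0.492% with Poly I:C. The 3 comparisons share the saline pups. The intervals for Igf2 and H19 in Low Protein include changes of 0.85 and 1.16 on the log2 scale, and at this spread between pups changes within those intervals cannot be distinguished from none.

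The spread itself was large. The SD of log2 TPM between the 6 Low Protein pups was 0.96 for Igf2, 1.13 for H19, 0.71 for Cdkn1c and 0.72 for Dlk1, above the SD of 99.4% to 99.9% of the genes tested, for which the median was 0.13. In saline pups the SD was 0.31 for Igf2, 0.60 for H19, 0.21 for Cdkn1c and 0.52 for Dlk1, above that of 96.3%, 99.7%, 85.5% and 99.6% of genes. MAM pups had an SD of 0.58 for Igf2 and 0.80 for H19, above 99.6% and 99.9% of genes, and Poly I:C pups had 0.28 and 0.42. The highest Low Protein pup had 6.16 times the Igf2 of the lowest, against 1.68 times in saline. A high rank was thus not particular to Low Protein, and for Peg3 (0.28 against 0.31) and Plagl1 (0.21 against 0.29) the Low Protein SD was below that of saline. The spread was not between litters alone, as litter 1 of Low Protein held both a high pup (1-1) and the lowest (1-3). Whether the spread differs between treatments was not tested.

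After group means were subtracted, the members fell into groups that varied together over the 24 pups. Igf2, H19, Cdkn1c and Grb10 correlated with each other at r = 0.85 to 0.95. These correlations are descriptions over 24 pups that share litters and libraries. Without the pups farthest from the median, Low Protein 2-2 and 1-3, r was 0.92 between Igf2 and H19, 0.89 between Igf2 and Cdkn1c and 0.72 between Igf2 and Grb10. After subtraction of litter means it was 0.95, 0.96 and 0.85. Igf2 and H19 are neighbours, and Cdkn1c lies in the same region of chromosome 1, but Grb10 is on chromosome 14.

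Dlk1, Peg3 and Ndn formed the second group, at r = 0.80 for Dlk1 with Peg3, 0.85 for Dlk1 with Ndn and 0.72 for Peg3 with Ndn. They lie on chromosomes 6 and 1. Across the groups r was 0.12 between Igf2 and Dlk1 and -0.29 between Igf2 and Ndn, but Grb10 correlated with Peg3 at 0.55 and with Dlk1 at 0.50 (0.62 and 0.68 without the 2 farthest pups). Plagl1 was closest to Peg3 (r = 0.66), and Mest to Grb10 (r = 0.60).

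The genes with the patterns most like each member, out of 5085 compared over the 24 pups, differed between these groups. For Igf2 they were Net1 (r = 0.96), H19, Cdkn1c, Bgn (0.93) and Foxc1 (0.93). Bgn encodes the matrix proteoglycan biglycan and Foxc1 a transcription factor of the meninges. For H19 the list was Igf2, Cdkn1c, Foxc1, Net1 and the gap junction gene Gjb2, and for Cdkn1c it was Foxc1, Igf2, Osr1, Net1 and Gjb2, with r from 0.89 to 0.95. For Grb10, compared with 5086 genes, it included Gjb2, Nbl1, Cdkn1c and Slc22a6, with r from 0.87 to 0.91.

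For Dlk1 the nearest genes were Gpx3 (r = 0.95), Hap1 (0.93), Cbln1, Resp18 and Ndn, and for Ndn they were Gpx3 (0.94), Caly, Resp18, Nap1l5 and Hap1 (0.92). Nap1l5 is itself an imprinted gene, and Hap1 encodes the huntingtin-associated protein, abundant in the hypothalamus. For Peg3 they were Magee1 (0.92), Gprasp1 (0.90), Tmem130, Ina and Cc2d1a. Plagl1 was nearest to Atp1b2 (0.87), Dclk1, Etnk1, Heca and Fam117b, and Mest to Arhgef40 (0.78), the patterning factor Zic1 (0.77), Nt5dc2, Hm13 and Ykt6.

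Markers of other tissue moved with the first group. The sum of a list of 15 meningeal and fibroblast genes, none of which was at 0.0001 TPM, the lowest value given, in any pup, was 15.7 to 23.5 TPM in saline and 10.1 to 52.2 TPM in Low Protein pups. Its highest pup was Low Protein 2-2 and its lowest was Low Protein 1-3, the same pups as for Igf2, H19 and Cdkn1c. MAM pups had sums of 13.7 to 27.0 TPM and Poly I:C pups of 13.9 to 28.3 TPM. Its log2 value correlated with Igf2 at r = 0.94 (0.88 without the 2 farthest pups), with Cdkn1c at 0.93, with H19 at 0.91 and with Grb10 at 0.84. A list of 9 pericyte and mural cell genes gave r = 0.78 to 0.83 with these members, and 7 blood genes gave 0.60 to 0.72. Less RNA from such cells and fewer such cells in the dissected piece cannot be told apart in bulk tissue, and the part of these markers in the results was not tested.

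The second group moved with markers of another region. The sum over 9 thalamic and hypothalamic genes correlated at r = 0.72 with Dlk1, 0.66 with Peg3 and 0.66 with Ndn, and at 0.02 with Igf2. Without the 2 farthest pups, Low Protein 2-3 and Poly I:C 2-3, r was 0.62 with Dlk1, 0.53 with Peg3 and 0.55 with Ndn. The sum was low, from 1.35 to 6.21 TPM over all pups, and 2 of its genes were at that lowest value in at least 1 pup. Low Protein 2-3, the highest pup of its group for Dlk1, Peg3 and Ndn, also had the group's highest sum (6.13 TPM). Poly I:C 2-2 went the other way. Its sum was high (5.63 TPM), but it had the lowest Ndn of all 24 pups (148 TPM) and the lowest Peg3 of its group (6.39 TPM). In the opposite direction, the sum over 9 cortical and hippocampal neuron genes correlated at r = -0.80 with Ndn, -0.74 with Dlk1 and -0.49 with Peg3. Without the 2 farthest pups, Saline 2-1 and Low Protein 2-3, r was -0.67 with Ndn, -0.58 with Dlk1 and -0.41 with Peg3. The neuron sum was lowest in Saline 2-1 (214 TPM) and Low Protein 2-3 (274 TPM), the pups with the highest Ndn. The part of these markers in the results was not tested. Lists for choroid plexus, endothelium, subpallium and cortical progenitors are in the plot of correlations.

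**Figure D3:**
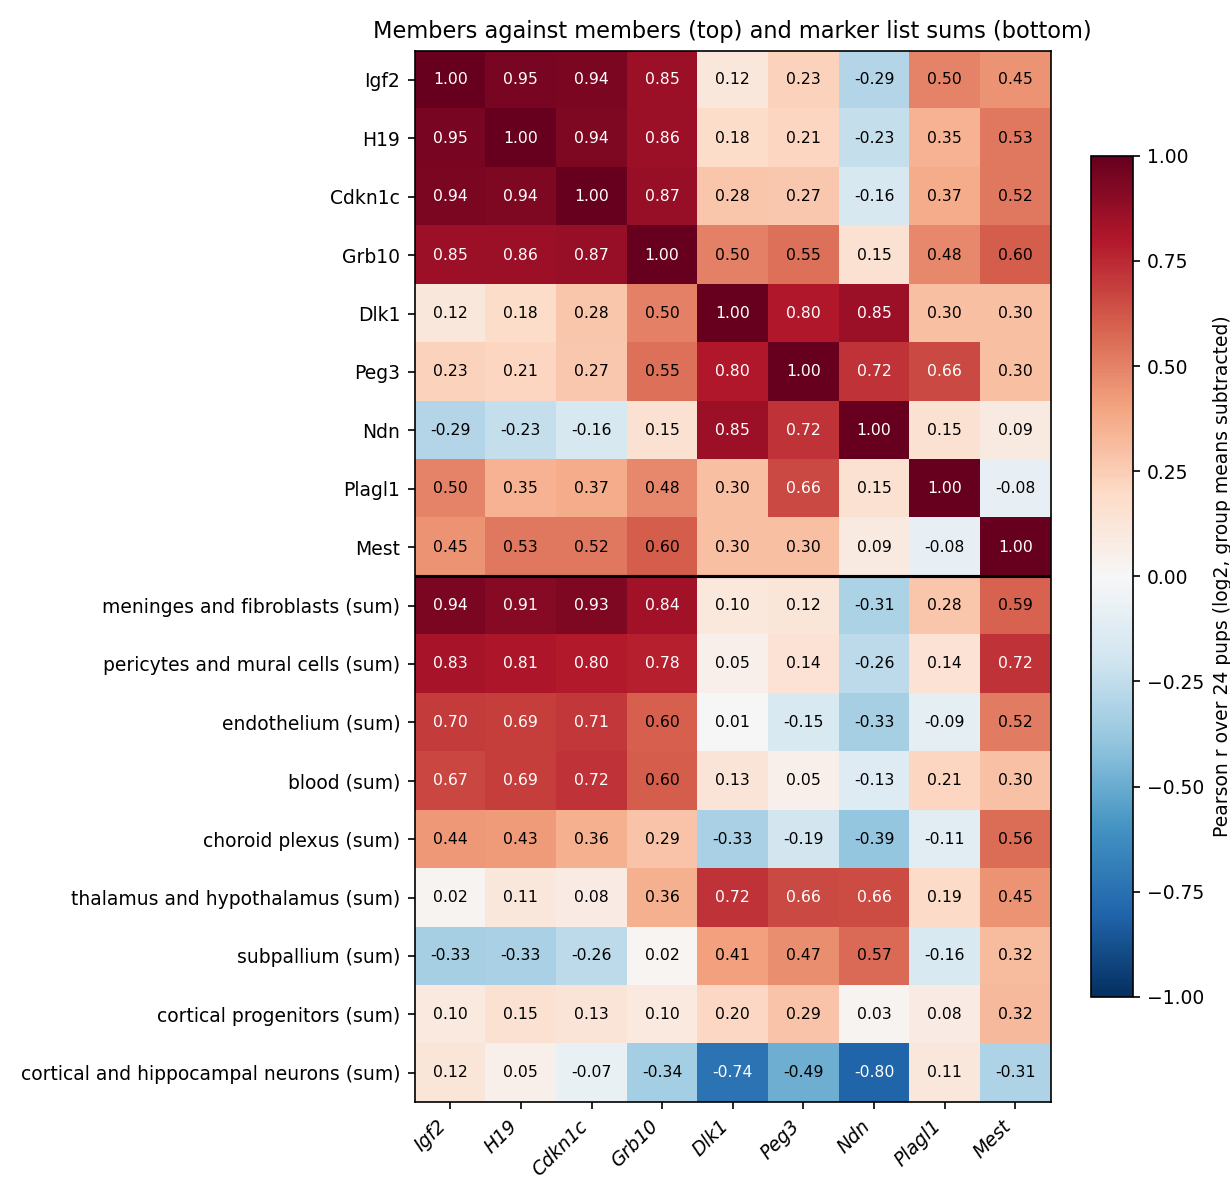
Pearson r over 24 pups of log2 TPM with each group's mean subtracted, for each pair of members (upper block) and for each member with the summed TPM of a marker list (lower block); red is positive and blue negative. Igf2, H19, Cdkn1c and Grb10 form a block at 0.85 to 0.95, the meningeal sum has 0.84 to 0.94 with them, and Ndn has -0.80 with the cortical and hippocampal neuron sum.

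**Figure D4:**
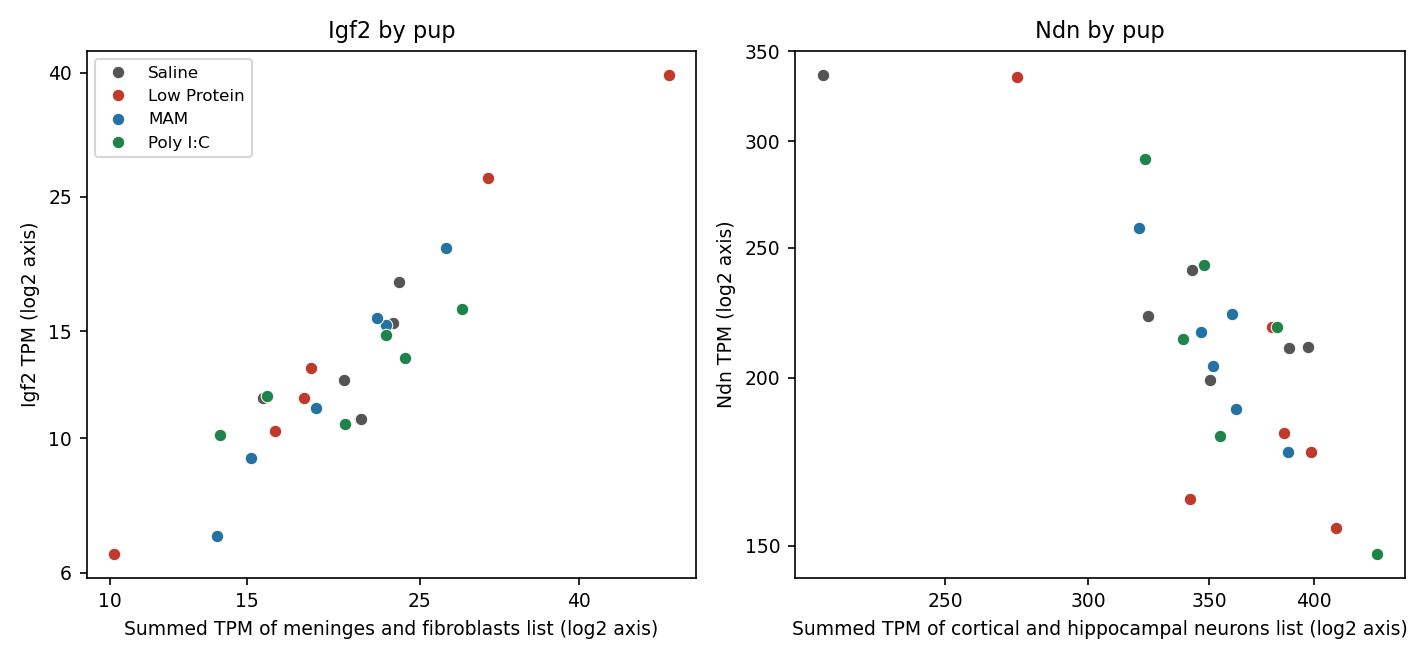
Left, Igf2 TPM against the summed TPM of the meningeal and fibroblast list; right, Ndn TPM against that of the cortical and hippocampal neuron list; each point is 1 of 24 pups, coloured by group, all axes log2. Low Protein 2-2 is at the upper right of the left panel (39.7 and 52.2 TPM) and Saline 2-1 is at the upper left of the right panel (336 and 214 TPM).

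Other imprinted genes were given by a list of 51, of which 39 were matched and 13 passed the filter on low values. In Low Protein 0 were higher and 1 was lower at the unadjusted threshold, beside 8.24% of all genes, with a median log2 fold change of -0.10 against -0.01 over all genes. The gene was Nnat, which encodes the small membrane protein neuronatin and was at 914, 994 and 1568 TPM in saline pups and 705, 813 and 1152 TPM in Low Protein pups. The ranges overlapped, and the log2 fold change was -0.34 (standard error 0.13, limma adjusted p = 0.543). Saline 2-1, which stood apart above, had the highest sum over the 39 matched genes (1712 TPM, where the saline median was 1146). Nnat made up most of that sum, with a mean of 1078 TPM in saline pups where the sum had a mean of 1220 TPM. The sum therefore says little about the other listed genes. Nnat was not fitted here without that pup. Nap1l5 (-0.39) and Dio3 (-0.30), which encodes the thyroid hormone-inactivating deiodinase, had the other lowest log2 fold changes, and Peg12 (0.07), Nap1l4 (0.03) and Tssc4 (-0.02) the highest, none of these past the threshold. In MAM 2 of the 13 were lower, beside 11.2% of all genes: Blcap (-0.19, limma adjusted p = 0.418) and Gnas (-0.16, adjusted p = 0.416). In Poly I:C, beside 9.95% of all genes, Nnat was lower (-0.40, adjusted p = 0.304) and Peg12 was higher (0.26, adjusted p = 0.490). In the wider fit, which holds 28 of the listed genes, Nnat was again the single call in Low Protein. The share of all 9879 genes of that fit past the threshold was 7.79%. There Inpp5f (-0.19) joined Blcap and Gnas in MAM, beside 10.6% of all genes of the fit. Nnat and Rasgrf1 (-0.44) were lower with Poly I:C, beside 9.92%, and Peg12 no longer passed.

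The pathway in which Igf2 and Grb10 act was given by a list of 26 insulin-like growth factor genes, of which 24 were matched and 6 passed the filter. At the unadjusted threshold 0 of 6 passed in each of the 3 comparisons, beside 8.24%, 11.2% and 9.95% of all genes. In the wider fit of 17 listed genes, the translation repressor gene Eif4ebp1 was higher in Low Protein (0.47, limma adjusted p = 0.576) and the kinase subunit gene Pik3r1 was lower in MAM (-0.23, adjusted p = 0.463), beside 7.79% and 10.6% of all genes of that fit. The genes named from the wider fit were chosen after their values were seen. In Low Protein the binding proteins Igfbp2 (0.05), Igfbp3 (0.01), Igfbp4 (-0.13) and Igfbp5 (-0.0028), the receptor substrate Irs2 (-0.14) and the kinase Akt1 (0.01) all had log2 fold changes near 0. The sum over the matched genes was 28.2 to 32.9 TPM in saline and 25.4 to 36.5 TPM in Low Protein, and Low Protein 2-2 and 2-3 were its highest and lowest pups.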

How the data were processed

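The members and all gene lists were chosen with earlier results of these data known. Reads had been trimmed, aligned to rn6 with STAR (2.4.1d) and quantified against RefSeq transcripts in Partek Flow, and the authors deposited TPM values per gene with an offset of 0.0001. Each column sums to 70350.1, so a value is a share of a fixed total, and columns were matched to samples by sample number. Depth is not stated; reads worth 1 step of low values were estimated from gene spans, where 49.1% to 54.4% of low values fell within 0.05 of a whole read (10% by chance), so counts were not recovered and count models were not used.

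Log2 TPM was fitted for all 24 pups with limma (3.58.1, R 4.3.3; lmFit and eBayes), with group as the factor, over 5086 genes with a mean above 1 in every group. Grb10 came from 9879 genes with a mean above 0.1 over all pups. A call was an unadjusted p under 0.05 (the study also set a minimum fold change for Low Protein and Poly I:C, not applied here), beside Benjamini-Hochberg adjusted values over all genes of the fit. Fold changes are on the log2 scale of the deposited value. Single members were also compared by exact two-sided permutation of 6 pups against 6 (924 splits, smallest p 0.00216). On simulated data the fit recovered 99.5% of 200 genes changed by 1 on the log2 scale in Low Protein, with 12 false positives. Both were counted at a Benjamini-Hochberg adjusted p under 0.05. False positives under the unadjusted call rule were not counted. The changed genes were drawn at random from all 5086, with independent noise between pups at each gene's pooled spread. Smaller changes were not simulated. The share does not carry over to members with a wide spread, such as H19 (SD of log2 TPM 1.13 in Low Protein). Named besides the members were list genes past the threshold or among the 3 highest and 3 lowest in Low Protein, and the 5 genes most like each member, of which 1 is not reported here. Alternatives covered the filter, pseudocount, scaling, pups in the fit, litter, replicate number, Eif2s3y as a proxy for sex, and leaving out each pup and litter. Saline, Low Protein, MAM and Poly I:C pups all entered, and none was left out of the main fit.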

Additional observations from a re-analysis of the deposited data

Results flagged for a closer look

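Within the 36 combinations of a member and a group, 2 held a pup far from its group, where chance gives about 1 in 20. Ndn was at log2 8.39 (336 TPM) in Saline 2-1, and the other 5 saline pups lay between 7.64 and 7.91. Mest was at log2 1.65 (3.14 TPM) in Poly I:C 1-3, and the other 5 Poly I:C pups lay between 2.05 and 2.23. Saline 2-1 also had the highest subpallium sum and the lowest cortical and hippocampal neuron sum of all 24 pups, and Poly I:C 1-3 had the lowest choroid plexus sum (35.0 TPM, where its group median was 182).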

How the results depend on the processing

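Over 12 other settings, 316 of 324 comparisons of a member with saline kept their direction and their side of the unadjusted threshold. Reversed were Grb10 in Low Protein with log2(value + 1) (0.0036), Cdkn1c with Poly I:C under median-of-ratios (0.00055) and upper-quartile scaling (0.0079), and H19 with MAM with Eif2s3y as a covariate (-0.017), all values close to 0. Of the 9 members, 1 passed in Low Protein with only the 12 pups compared, which was Peg3. For MAM 0 passed under median-of-ratios scaling and on litter means, and 2 with the replicate block, which were Peg3 and Mest. Over 36 pairs with the same number in different groups, r of the deviations from group means ran from -0.42 to 0.56. The median was 0.16, with 22 above 0.1. Among pups read as litter-mates the median r was -0.25, with 3 of 24 pairs above 0.1. Between the 2 litters of a group it was -0.21, with 8 of 36 above 0.1. Subtracting the group mean itself lowers r within a group, and whether the numbers pair the pups was not tested. The replicate block gave 596 genes past the threshold in Low Protein, where the fit without it gave 419, and it changed no other member's call against saline.

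Leaving out each pup or litter in turn, 784 comparisons kept direction and side, 57 reversed, 13 newly passed and 10 no longer passed. The number of members past the threshold ran from 0 to 2 in Low Protein, 0 to 2 with MAM, 0 to 1 with Poly I:C, 0 to 1 between Low Protein and MAM, and 0 to 2 between Low Protein and Poly I:C. Log2 fold changes that changed sign in Low Protein ran from -0.086 to 0.44 for Igf2, -0.41 to 0.25 for Dlk1 and -0.21 to 0.13 for Grb10. With MAM they ran from -0.21 to 0.10 for Igf2, -0.083 to 0.35 for H19, -0.0017 to 0.15 for Cdkn1c, -0.28 to 0.076 for Dlk1 and -0.22 to 0.024 for Plagl1. With Poly I:C they ran from -0.11 to 0.063 for Igf2, -0.074 to 0.074 for Cdkn1c, -0.27 to 0.49 for Dlk1, -0.41 to 0.31 for Peg3, -0.016 to 0.16 for Grb10, -0.32 to 0.25 for Plagl1, -0.10 to 0.041 for Mest and -0.38 to 0.10 for Ndn. The cause was not tested.

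Counts over all genes moved by more than 1.5 times with the filter, on litter means and when a pup or litter was left out, where they ran from 271 to 530 in Low Protein, 163 to 862 with MAM, 228 to 964 with Poly I:C, 268 to 990 between Low Protein and MAM, and 130 to 751 between Low Protein and Poly I:C. In Low Protein 419 genes became 770 (mean above 0.1), 1024 (no filter) and 262 (litter means). With MAM 572 became 1049, 1387 and 250, and 881 with the Eif2s3y covariate. With Poly I:C 506 became 980, 1298 and 312. Between Low Protein and MAM 560 became 968, 1211 and 352, and between Low Protein and Poly I:C 270 became 491, 715 and 164, and 447 with the covariate. The share of these genes that were higher with MAM was 27.3% and became 80% under median-of-ratios and 56.5% under upper-quartile scaling, and between Low Protein and MAM it was 79.8% and became 45% and 58%.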

Other observations

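The ratio of H19 to Igf2, genes that share a control region, was looked at after the values had been seen. The log2 ratio of TPM was 0.49 ± 0.33 (SD, n = 6) in saline pups. Low Protein pups had 0.60 ± 0.25, MAM pups 0.68 ± 0.26 and Poly I:C pups 0.85 ± 0.29. It differed from saline by 0.11 in Low Protein (exact two-sided permutation p = 0.545), 0.18 with MAM (exact p = 0.303) and 0.36 with Poly I:C (exact p = 0.0866), none past the threshold. In Low Protein the SD of the ratio was 0.25, where the SD of H19 itself was 1.13 and that of Igf2 0.96.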
